A study of Danio rerio with 18 samples.

Results

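Retinoic acid metabolism was followed through 10 genes in sorted retinal pigment epithelium (RPE) of larval zebrafish, with and without prior ablation of the RPE. The genes were picked by symbol, out of 34326 in the tables, because their products make, bind or remove retinoic acid or its precursor. The choice was made with earlier results of these data known, so shares set beside those of all genes are descriptions. It is not a complete set, and other genes with such products, such as dhrs3a, stand in a wider list. The 10 genes are dhrs3b, aldh1a2, aldh1a3, crabp1a, crabp1b, crabp2a, cyp26a1, cyp26b1, cyp26c1 and cyp1b1. All 10 were found and all 10 passed the filter on low counts, as did 20093 genes in all.

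Retinoic acid is a small lipid signal made from vitamin A. Retinol is oxidised to retinal, a step that dhrs3 enzymes reverse, and aldehyde dehydrogenases of the aldh1a family oxidise retinal to retinoic acid. Cellular retinoic acid binding proteins (crabp) hold the acid in the cytoplasm, nuclear receptors of the rar and rxr families read it, and cytochromes of the cyp26 family degrade it. In the embryonic zebrafish eye aldh1a2 is known from the dorsal and aldh1a3 from the ventral retina. The RPE stores vitamin A as esters and recycles retinal for photoreceptors, so the same precursors serve vision there.

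Bulk RNA-seq libraries were made from eGFP-positive cells sorted from dissociated larval eyes, with at most 1000 cells per library, and the labels give these cells as RPE. Ablated larvae (MTZ+) had spent 24 h in 10 mM metronidazole between 5 and 6 days post fertilisation (dpf), and unablated larvae (MTZ-) had not. With sampling at 2, 4 and 7 days post-injury (dpi) there were 6 groups with 3 libraries each, 18 in all, and both kinds of larvae had been kept in 1.5X phenylthiourea from 0.25 to 5 dpf to stop pigmentation. In the published form of this model a fusion of nitroreductase, which turns metronidazole into a toxin, with eGFP is driven by the rpe65a promoter, so the sort depends on a promoter of mature RPE. No labelled group received the drug without ablation, and effects of the drug and of RPE loss cannot be told apart. Whether replicates are separate clutches is not stated in the labels, and the p-values therefore reflect only spread among these libraries, which may be technical.

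Total counts ran from 21.9 M to 60.4 M per library. All 9 defining RPE markers were present in every group, with group means of rpe65a, the visual cycle isomerase, from 7710 to 21400 CPM (counts per M of library size after TMM scaling). One library labelled MTZ-, unablated 4 dpi replicate 1, carries the word positive in its sequencing name. The submitters note this as a naming error, and the MTZ- label was used. Sequencing names carry dates that replicates 2 and 3 at 2 dpi share, and that replicates 2 at 4 and 7 dpi share, so differences between times and between dates can only partly be told apart.

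Levels between genes were compared in TPM, a unit that accounts for library size and transcript length. dhrs3b had the highest mean level over the 18 libraries, 132 TPM, followed by crabp1a at 27 TPM, crabp2a at 17.2 TPM, cyp26b1 at 7.55 TPM and cyp1b1 at 3.97 TPM. aldh1a3 stood at 1.19 TPM, cyp26c1 at 0.547 TPM, crabp1b at 0.334 TPM, cyp26a1 at 0.309 TPM and aldh1a2 at 0.199 TPM. dhrs3b led in 17 of 18 libraries, and crabp1a led in the remaining one, unablated 2 dpi replicate 2, at 225 TPM. Every pair of neighbours in this order overlapped in range across libraries. Of crabp1b and cyp26a1 each was the higher in 7 libraries, with 4 equal, and of cyp26a1 and aldh1a2 the first was the higher in 7 and the second in 8. Under 10 counts were recorded in 13 libraries for aldh1a2, 13 for crabp1b, 12 for cyp26a1, 9 for cyp26c1 and 6 for aldh1a3, and fold changes of these 5 genes rest on few reads.

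Ablated and unablated larvae were compared first at 2 dpi, which asks how these genes stood early after injury. cyp1b1, a cytochrome P450 gene, fell to almost no counts. It was the only one of the 10 called in the edgeR quasi-likelihood test at an adjusted p below 0.05, in which 0.856% of all tested genes were called lower and 2.25% were called in either direction. The fold change was negative for 9 of the 10 genes, with crabp1b the exception. The median log2 fold change was -3.61 for the 10 genes, or -3.00 with aldh1a3 at the bound given by its lack of counts, and -0.03 over all tested genes. Unablated and ablated libraries did not overlap for crabp1a, crabp2a, cyp26b1 and cyp1b1, which makes 4 of 10 lower against 11.6% of all genes. An unadjusted p below 0.05 was found for 5 of 10, against 16.5% of all genes. When replicate numbers were used as pairs, crabp1a, crabp2a and cyp1b1 were called lower, 3 of 10 against 6.87% of all genes. The count behind the 2.25%, 452 genes, fell to between 19 and 262 when any 1 of the 6 libraries of 2 dpi was left out, lowest without unablated replicate 2, and to 295 and 270 without ablated 4 dpi replicates 2 and 3.

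At 4 and 7 dpi none of the 10 genes was called in the same test. At 4 dpi 0.0946% of all genes were called (19 genes, and 0 to 56 when 1 library was left out), 2 of the 10 had an unadjusted p below 0.05 against 11.7% of all genes, and DESeq2 called cyp1b1. At 7 dpi no gene of any kind was called, 1 of the 10 had an unadjusted p below 0.05 against 6.61% of all genes, and DESeq2 again called cyp1b1. The median log2 fold change was 0.09 at 4 dpi, beside -0.07 over all genes, and 0.03 at 7 dpi, beside 0. Groups were separate at 4 dpi for cyp1b1, lower, and crabp1b, higher, 1 of 10 each way against 11.1% and 13.7% of all genes, and for none of the 10 at 7 dpi against 9.32%.

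**Figure D1:**
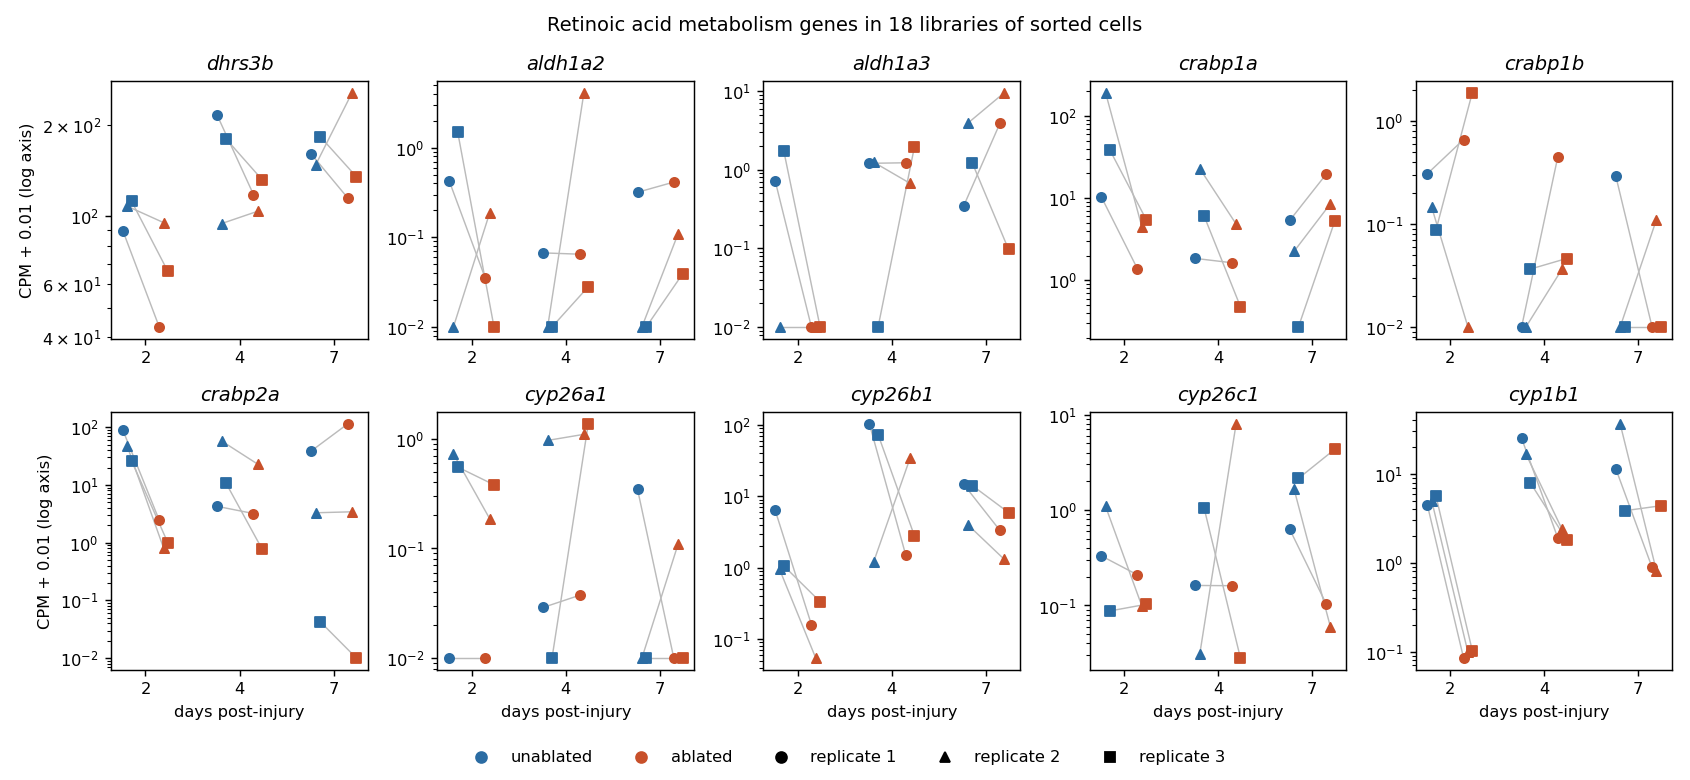
CPM plus 0.01 on a log axis for each gene by days post-injury, with unablated libraries in blue, ablated libraries in red, the replicate number as the marker shape and a grey line between libraries of the same number. At 2 dpi the 3 ablated libraries lie below the 3 unablated ones for crabp1a, crabp2a, cyp26b1 and cyp1b1.

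**Figure D2:**
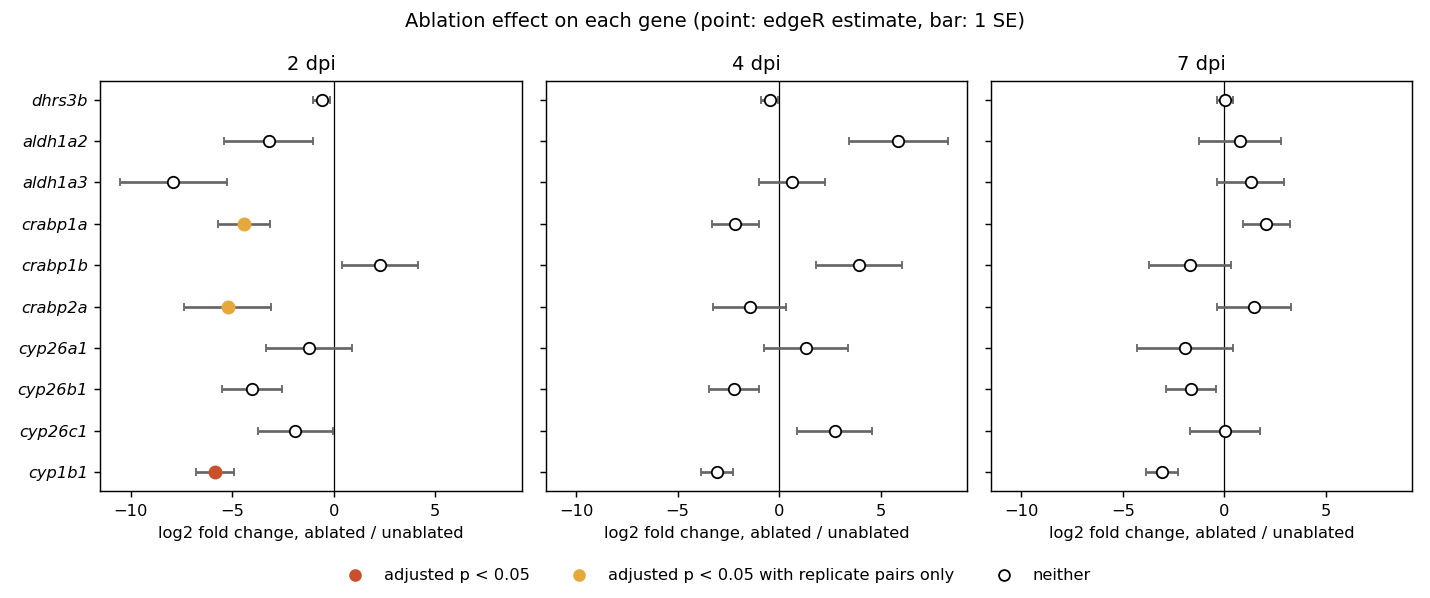
Log2 fold change of ablated over unablated libraries at 2, 4 and 7 dpi, with each point an edgeR estimate and each bar 1 standard error. A red point marks an adjusted p below 0.05 (cyp1b1 at 2 dpi), and yellow points mark genes called with replicate pairs but not without them in this fit of all libraries (crabp1a and crabp2a at 2 dpi).

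dhrs3b encodes a retinal reductase that returns retinal to retinol and so limits retinoic acid synthesis (ENSDARG00000044803, chromosome 11, 28343559 to 28367434, minus strand, GRCz10). It stood at 89.5, 108 and 112 CPM in unablated replicates 1, 2 and 3 and at 43.3, 95.4 and 65.9 CPM in ablated replicates 1, 2 and 3 at 2 dpi. The ablated library was the lower in all 3 pairs, but ablated replicate 2 lay within the unablated range. The log2 fold change was -0.60 (SE 0.40, adjusted p = 0.50). At 4 dpi the unablated libraries held 215, 94.7 and 180 CPM and the ablated ones 118, 104 and 132 CPM (log2 fold change -0.47, SE 0.40, adjusted p = 0.74). At 7 dpi they held 160, 148 and 183 CPM against 115, 255 and 135 CPM (log2 fold change 0.04, SE 0.40, adjusted p = 1). Both sets overlapped. dhrs3b varied least of the 10, and its standard error of 0.40 compares with 0.95 for cyp1b1 and 2.64 for aldh1a3 at 2 dpi.

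Differences of dhrs3b from 2 dpi to later times did not pass either. In ablated larvae all 7 dpi libraries lay above all 2 dpi libraries, with a log2 difference of 1.30 (SE 0.40, adjusted p = 0.06). In unablated larvae the 7 dpi libraries were likewise above those of 2 dpi, by 0.67 (SE 0.40, adjusted p = 0.36). DESeq2 called the difference in ablated larvae, and limma on log2(TPM + 1) called both. On that scale, which has no TMM scaling, the median difference over all tested genes was itself higher. It was 0.24 in ablated and 0.33 in unablated larvae, beside 0.11 and 0.13 in the edgeR fit.

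aldh1a2 and aldh1a3 encode retinaldehyde dehydrogenases, the enzymes that make retinoic acid. Both lie on chromosome 7 on the minus strand, aldh1a2 at 30055034 to 30096500 (ENSDARG00000053493) and aldh1a3 at 9476221 to 9557990 (ENSDARG00000076933). aldh1a3 was at 0.716, 0 and 1.71 CPM in unablated 2 dpi replicates 1, 2 and 3 and at 0 in all 3 ablated libraries. Since unablated replicate 2 was also at 0, the groups touched. With a floor of 3 counts per library, which covers counting error only, the ablated mean was at least 6.98-fold lower, or at least 3.1-fold lower without unablated replicate 3, and the difference did not pass (adjusted p = 0.13). DESeq2 called it.

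Counts of aldh1a3 returned in ablated libraries after 2 dpi. At 4 dpi it stood at 1.22, 0.664 and 1.93 CPM in ablated and at 1.2, 1.24 and 0 CPM in unablated libraries. At 7 dpi ablated libraries held 3.89, 9.57 and 0.0868 CPM, the last of these from 3 counts, and unablated libraries held 0.336, 3.93 and 1.21 CPM. Neither time separated ablated from unablated larvae. Within ablated larvae aldh1a3 rose from 2 to 7 dpi, at least 39-fold against the same floor of 0.116 CPM (adjusted p = 0.035). The bound was 17.2-fold without ablated 7 dpi replicate 2, and replicate 3 of that group lay below the floor. That call was lost without ablated 2 dpi replicate 1, 2 or 3, ablated 4 dpi replicate 3, or ablated 7 dpi replicate 1 or 2 (adjusted p 0.05 to 0.11). From 2 to 4 dpi the mean was at least 11-fold higher and did not pass (adjusted p = 0.085).

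aldh1a2 was close to absent. It held 0 counts in 6 of 18 libraries, its highest value was 4.09 CPM in ablated 4 dpi replicate 2, and its next highest was 1.47 CPM in unablated 2 dpi replicate 3. The other 4 dpi libraries lay between 0 and 0.057 CPM. The log2 fold changes were -3.20 at 2 dpi (SE 2.2, adjusted p = 0.52), 5.88 at 4 dpi (SE 2.44, adjusted p = 0.34) and 0.76 at 7 dpi (SE 2.02, adjusted p = 0.98). Without ablated 4 dpi replicate 2 the 4 dpi value was 0.78, so that library set it.

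The crabp genes encode carriers of retinoic acid in the cytoplasm. crabp1a (ENSDARG00000045926, chromosome 25, 6179483 to 6209978, plus strand) was at 10.4, 191 and 38.3 CPM in unablated 2 dpi replicates 1, 2 and 3, and at 1.37, 4.48 and 5.48 CPM in ablated ones. Every ablated library lay below every unablated one, and replicate 2 was the highest of the unablated libraries by far. The log2 fold change was -4.41 (SE 1.27, adjusted p = 0.076), and with replicate pairs it was -3.68 (SE 0.76, adjusted p = 0.0092). No fit that left out 1 library passed, with adjusted p from 0.056 to 0.33.

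At 4 dpi crabp1a stood at 1.84, 22.8 and 6.02 CPM in unablated and 1.63, 4.84 and 0.47 CPM in ablated libraries, lower in all 3 pairs but with overlapping groups (log2 fold change -2.15, SE 1.15, adjusted p = 0.51). At 7 dpi the unablated libraries held 5.35, 2.25 and 0.262 CPM and the ablated ones 19.4, 8.52 and 5.21 CPM. Ablated libraries were then the higher in all 3 pairs, and the groups overlapped narrowly (log2 fold change 2.07, SE 1.15, adjusted p = 0.79).

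crabp2a (ENSDARG00000073978, chromosome 16, 14493359 to 14506883, minus strand) showed a like order at 2 dpi. Unablated replicates 1, 2 and 3 held 88, 46.4 and 25.9 CPM, and ablated replicates held 2.44, 0.798 and 0.975 CPM. The groups were far apart, yet the test across all libraries did not call the gene (log2 fold change -5.23, SE 2.13, adjusted p = 0.22). The call was made with replicate pairs (-5.24, SE 0.66, adjusted p = 0.00073) and in a fit of the 2 dpi libraries alone. The gene's values at the other times show a wide spread within groups. They were 4.24, 57.7 and 10.8 CPM in unablated and 3.18, 22.8 and 0.759 CPM in ablated 4 dpi libraries, and 38.9, 3.28 and 0.0328 CPM against 114, 3.41 and 0 CPM at 7 dpi. In unablated and in ablated larvae replicate 2 was the highest at 4 dpi, and replicate 1 was the highest and replicate 3 the lowest at 7 dpi.

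The ablation effects of crabp1a and crabp2a at 7 dpi lay above those at 2 dpi when that difference was itself tested. For crabp1a it was 6.48 on the log2 scale (SE 1.70, adjusted p = 0.32), and 6.20 with replicate pairs (SE 1.06, adjusted p = 0.014). For crabp2a it was 6.70 (SE 2.75, adjusted p = 0.42), and 5.97 with pairs (SE 0.96, adjusted p = 0.012). None of the 10 genes passed for this difference without pairs, where no gene of any kind did, and 4 of 10 had an unadjusted p below 0.05 against 10.3% of all genes. With pairs 2 of 10 passed upward against 1.94% of all genes, and DESeq2 called crabp1a.

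Markers of neural retina progenitors were lower after ablation at 2 dpi as well. Of 20 genes listed as markers of neural retina progenitors, 20 had a negative fold change at 2 dpi with a median log2 value of -3.05, 1 was called lower and 10 were called lower with pairs, against 0.856% and 6.87% of all genes. Summed, the 20 genes reached 483 to 1300 CPM in unablated libraries at 2 dpi against 259 to 343 CPM in ablated ones, and were highest in unablated replicate 2, as was crabp1a. Among these unablated libraries crabp2a was instead highest in replicate 1, where the sum was lowest. At 4 dpi the sums were 403 to 685 CPM and 280 to 390 CPM, and at 7 dpi 277 to 613 CPM and 363 to 691 CPM. The change of the ablation effect from 2 to 7 dpi was positive for 18 of the 20, as for crabp1a and crabp2a. Its median was 3.73 on the log2 scale, beside 0.03 over all genes. For that change 0 of the 20 were called without pairs and 6 were called higher with pairs, against 1.94% of all genes.

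Other marker lists differed at 2 dpi as well. The summed level of Müller glia markers was 4090 to 6980 CPM without ablation and 915 to 2440 CPM after it, that of retinal neuron markers 104 to 129 CPM and 47.1 to 66.7 CPM, and that of lens markers 13.4 to 120 CPM and 3.52 to 9.4 CPM. By count, fold changes were negative for 6 of 11 Müller glia, 10 of 15 retinal neuron and 9 of 10 lens markers tested. Their medians were -0.26, -2.08 and -3.49 on the log2 scale. Of the Müller glia markers 0 were called without pairs and 2 were called lower with pairs, against 6.87% of all genes. One of these 2, fabp7a, held 401, 4250 and 1650 CPM of the sums of 6980, 5950 and 4090 CPM in unablated replicates 1, 2 and 3. Of 15 photoreceptor markers 13 had negative fold changes with a median of -3.00, while their sums overlapped at 215 to 1510 CPM and 64.2 to 784 CPM. With pairs 5 of the 15 were called lower, against 6.87% of all genes, and 0 were called without pairs. Cornea and keratinocyte markers summed higher after ablation in all 3 pairs, at 407, 86.5 and 140 CPM against 448, 151 and 204 CPM, although 7 of 11 had negative fold changes. The sums overlapped for neural crest pigment cell markers (612 to 2050 CPM and 1450 to 2480 CPM) and for macrophage markers (0.494 to 16.6 CPM and 2.24 to 11.8 CPM). For periocular mesenchyme markers they were 23.8 to 25.3 CPM and 8.15 to 23.3 CPM. RPE and visual cycle genes summed to 128000 to 177000 CPM and 77900 to 85800 CPM. Of 17 such genes tested 15 had negative fold changes, with a median of -0.65, and 0 were called without pairs. With pairs 5 were called lower, rpe65a among them, and 1 higher, against 6.87% and 7.56% of all genes. The part of these cells in the crabp values was not tested. In bulk libraries fewer cells of a type and less RNA per cell cannot be told apart.

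**Figure D3:**
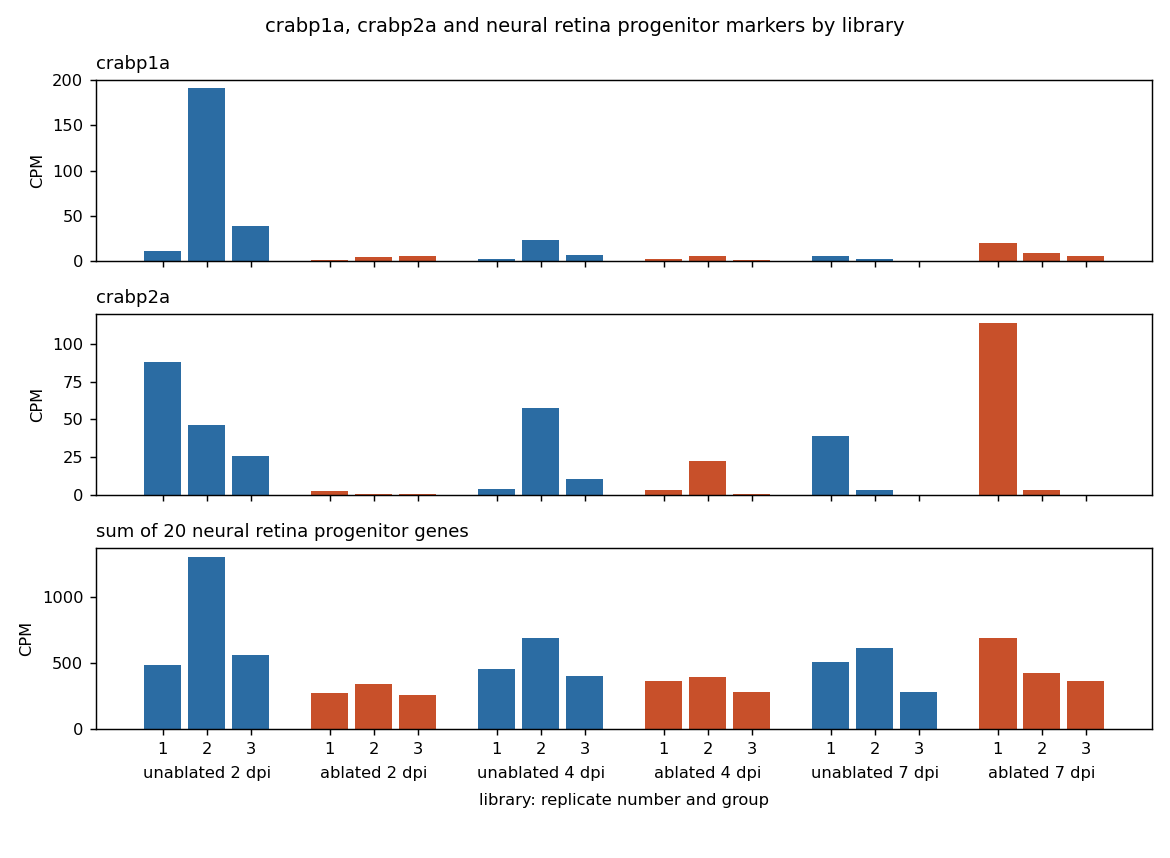
CPM of crabp1a, crabp2a and the sum of 20 neural retina progenitor markers in each of the 18 libraries, with unablated libraries in blue and ablated libraries in red and linear axes from 0. The bars of unablated 2 dpi replicate 2 are the tallest for crabp1a (191 CPM) and for the progenitor sum (1300 CPM), and the bar of ablated 7 dpi replicate 1 is the tallest for crabp2a (114 CPM).

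crabp1b (ENSDARG00000035904, chromosome 7, 48047140 to 48069974, plus strand) was nearly silent beside its paralog crabp1a, with 131 counts over all libraries against 9085. The rule by which reads that match several genes were counted is not given in the sources used here, and how alike the sequences of these paralogs are was not examined. It was at 0.296, 0.135 and 0.0776 CPM in unablated and at 0.648, 0 and 1.86 CPM in ablated 2 dpi libraries. At 4 dpi ablated libraries held 0.438, 0.0266 and 0.0361 CPM and unablated ones 0, 0 and 0.0264 CPM, a separation that rests on single reads (log2 fold change 3.94, SE 2.11, adjusted p = 0.51).

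The cyp26 genes encode the cytochromes that degrade retinoic acid. cyp26b1 (ENSDARG00000077121, chromosome 7, 25052585 to 25077440, plus strand) was the most abundant of them. At 2 dpi it was at 6.37, 0.943 and 1.05 CPM in unablated and 0.15, 0.0444 and 0.325 CPM in ablated libraries, where the groups did not overlap. The log2 fold change was -4.02 (SE 1.46, adjusted p = 0.16), and DESeq2 called it.

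At 4 dpi cyp26b1 was high in some libraries of both kinds. Unablated replicates 1 and 3 held 103 and 72.9 CPM while unablated replicate 2 held 1.21 CPM, and ablated replicate 2 held 33.9 CPM while ablated replicates 1 and 3 held 1.51 and 2.8 CPM. Replicate 2 was therefore the low one among unablated and the high one among ablated libraries (log2 fold change -2.22, SE 1.25, adjusted p = 0.53). At 7 dpi it was at 14.7, 3.97 and 14.1 CPM in unablated and 3.32, 1.3 and 5.9 CPM in ablated libraries, lower in all 3 pairs with overlapping groups (log2 fold change -1.63, SE 1.23, adjusted p = 0.87).

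Within ablated larvae cyp26b1 rose from 2 to 4 dpi by 6.20 on the log2 scale (SE 1.57, adjusted p = 0.035). Without ablated 4 dpi replicate 2 the difference was 3.63, and the call was lost without any 1 of the 6 ablated libraries of 2 and 4 dpi (adjusted p 0.053 to 0.21). In unablated larvae the same interval gave 4.39 (SE 1.38, adjusted p = 0.083). An antisense transcript model, CU929416.1, overlaps cyp26b1 and holds 24 counts over all libraries, and whether counting used strand is not given in the sources used here.

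cyp26a1 and cyp26c1 stayed low. cyp26a1 (ENSDARG00000033999, chromosome 12, 8916918 to 8920510, minus strand) was at 0 in 7 libraries and reached at most 1.36 CPM, in ablated 4 dpi replicate 3. Its log2 fold changes were -1.21, 1.32 and -1.94 at 2, 4 and 7 dpi, with standard errors of 2.12, 2.06 and 2.36. cyp26c1 (ENSDARG00000056029, chromosome 17, 19503020 to 19515492, minus strand) reached 7.97 CPM in ablated 4 dpi replicate 2 and 4.31 CPM in ablated 7 dpi replicate 3, and lay between 0.0181 and 2.13 CPM elsewhere. Without ablated 4 dpi replicate 2 its 4 dpi log2 fold change went from 2.75 to -2.18. It overlaps the antisense model CU571091.1, which holds 11 counts.

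cyp1b1 (ENSDARG00000068934, chromosome 13, 41885315 to 41892978, plus strand) encodes a cytochrome P450 that oxidises retinol and other substrates, and that makes retinoic acid without an aldehyde dehydrogenase in the chick embryo. In unablated 2 dpi replicates 1, 2 and 3 it stood at 4.47, 4.99 and 5.59 CPM, and in ablated ones at 0.0748, 0.0887 and 0.0928 CPM, from 3, 2 and 2 counts. Both groups were tight and lay far apart. Summed counts of 436 and 7 gave a ratio of 59.2, with an exact 95% counting interval from 28.5 to 148 that covers counting error only. cyp1b1 fell by 5.84 on the log2 scale (SE 0.95, adjusted p = 0.015), and all 18 fits that left out 1 library kept the call (adjusted p 0.0099 to 0.044). It was lost on log2(TPM + 1) (log2 difference -1.43, adjusted p = 0.29), and without all first replicates (adjusted p = 0.052). The gene stood at 1.39 to 2.57 TPM in unablated and 0.0226 to 0.0465 TPM in ablated 2 dpi libraries. At such levels the added 1 limits how large a log2(TPM + 1) difference can be.

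At 4 dpi cyp1b1 was at 25.2, 16.7 and 7.95 CPM in unablated and 1.89, 2.36 and 1.81 CPM in ablated libraries. The groups were again separate, but the difference did not pass (log2 fold change -3.04, SE 0.78, adjusted p = 0.12, unadjusted p = 0.0012). At 7 dpi it was at 11.4, 36.5 and 3.84 CPM in unablated and 0.877, 0.802 and 4.37 CPM in ablated libraries. Pairs 1 and 2 were lower after ablation and pair 3 was slightly higher (log2 fold change -3.09, SE 0.79, adjusted p = 0.71, unadjusted p = 0.0011). A fall at 2 dpi and none called later does not show that the effect changed. The difference of effects between 4 and 2 dpi was 2.80 (SE 1.12) and between 7 and 2 dpi 2.75 (SE 1.12), with adjusted p of 1 and 0.42.

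In ablated larvae cyp1b1 rose from 2 to 4 dpi by 4.53 on the log2 scale (SE 0.91, adjusted p = 0.018). That call was lost without ablated 2 dpi replicate 2 or 3, or without any 1 of the ablated 4 dpi libraries (adjusted p 0.052 to 0.11). From 2 to 7 dpi it rose by 4.53 as well (SE 0.91, adjusted p = 0.0095), a call kept in all 18 such fits, with 3.23 when ablated 7 dpi replicate 3 was left out. Both calls were lost in limma-voom (adjusted p = 0.11 from 2 to 4 dpi and 0.14 from 2 to 7 dpi). They were also lost on log2(TPM + 1), with differences of 1.17 (adjusted p = 0.25) and 0.89 (adjusted p = 0.42), where the added 1 again narrows differences. In unablated larvae all 4 dpi libraries lay above all 2 dpi ones without passing (1.73, SE 0.75, adjusted p = 0.21).

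In a list of 12 endothelial markers, fold changes were positive for 6 and negative for 5 of the 11 tested at each of 2, 4 and 7 dpi, with medians of 0.18, 0.17 and 0.08. At 2 and 4 dpi every ablated library had a lower sum than every unablated one, and the sums overlapped at 7 dpi. They were 29.9 to 133 CPM without ablation and 3.24 to 25.8 CPM after it at 2 dpi, 161 to 245 CPM and 5.69 to 10.4 CPM at 4 dpi, and 46.8 to 320 CPM and 11.3 to 97.5 CPM at 7 dpi. Most of the sum without ablation came from gpr182, a receptor gene called lower at 2 dpi (log2 fold change -7.00, SE 1.41, adjusted p = 0.02), at 15.7, 120 and 86 CPM in unablated and 0.125, 1.46 and 0.186 CPM in ablated 2 dpi libraries. The other 11 markers summed to 9.97 to 14.2 CPM and 3.12 to 24.4 CPM at 2 dpi, to 3.29 to 5.05 CPM and 3.7 to 6.01 CPM at 4 dpi, and to 5.5 to 8.02 CPM and 4.56 to 10.3 CPM at 7 dpi, with overlap at each time. Of the defining markers lyve1b was at 0 in all libraries of every group except ablated 2 dpi, kdrl in unablated 7 dpi and tie1 in ablated 7 dpi libraries. The part of such cells in the cyp1b1 values was not tested.

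Differences between times were taken within each larval state. In ablated larvae 2 of 10 were called higher at 4 than at 2 dpi, cyp26b1 and cyp1b1, against 1.02% of all genes, and 2 of 10 were called higher at 7 than at 2 dpi, aldh1a3 and cyp1b1, against 2.77%. There 4 and 6 of the 10 had an unadjusted p below 0.05, against 17.7% and 22.7% of all genes. In unablated larvae 1 of 10 was called lower at 7 than at 2 dpi, crabp1a, against 2.71% of all genes called lower and 3.86% called either way, and 2 of 10 had an unadjusted p below 0.05 against 21%. None was called between 4 and 2 dpi in unablated larvae, where 3.57% of all genes were (0.811% higher and 2.76% lower), 3 of 10 had an unadjusted p below 0.05 against 19.5%, and DESeq2 called cyp26b1 and crabp1a. DESeq2 called 2204 of all 20093 genes tested in that comparison. Between 7 and 4 dpi no gene of any kind was called in either state by edgeR, DESeq2 called 0 of the 10, and 0 of the 10 had an unadjusted p below 0.05, against 4.16% of all genes in unablated and 4.09% in ablated larvae. These shares depend on single libraries. Over fits that left out 1 library, the number of all genes called from 2 to 4 and from 2 to 7 dpi ran from 0 to 1439 (864 with all) and from 452 to 1682 (1356 with all) in ablated larvae, and from 2 to 1615 (718 with all) and from 0 to 1424 (776 with all) in unablated larvae.

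The fall of crabp1a in unablated larvae from 2 to 7 dpi was called at a log2 difference of -4.92 (SE 1.30, adjusted p = 0.046), with all 7 dpi libraries below all 2 dpi ones. Without unablated 2 dpi replicate 2 the difference was -3.18 (adjusted p = 0.21). The call was also lost without unablated 2 dpi replicate 3, ablated 2 dpi replicate 2 or 3, unablated 4 dpi replicate 3, ablated 4 dpi replicate 1 or 2, unablated 7 dpi replicate 2 or 3, or ablated 7 dpi replicate 2, at adjusted p of 0.053 to 0.17. For the change of the ablation effect from 2 to 4 dpi and from 4 to 7 dpi none of the 10 and no other gene passed. There 3 and 1 of the 10 had an unadjusted p below 0.05, against 4.57% and 3.47% of all genes, and DESeq2 called none of the 10. With pairs 0.0796% of all genes passed from 2 to 4 dpi and 0% from 4 to 7 dpi, and none of the 10 did.

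Further genes of the pathway were taken from a list of 42 symbols, of which 39 matched and 38 were tested. At 2 dpi 1 of the 38 was called higher and 0 lower, beside 1.39% and 0.856% of all genes, with a median log2 fold change of -0.46 beside -0.03 over all genes. At 4 dpi and at 7 dpi 0 were called, and the medians were -0.55 and -0.34, beside -0.07 and 0. An unadjusted p below 0.05 was found for 6, 8 and 3 of the 38 at 2, 4 and 7 dpi, against 16.5%, 11.7% and 6.61% of all genes. With pairs 1 was called higher and 6 lower at 2 dpi, against 7.56% and 6.87% of all genes. At 4 dpi 5 were called lower with pairs against 3.93% of all genes, and at 7 dpi none was, against 0.00498%.

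The one called was rdh10b, which encodes a retinol dehydrogenase of the first oxidation step to retinal. It rose from 21.8, 27 and 25.8 CPM in unablated to 59.8, 134 and 52.5 CPM in ablated 2 dpi libraries, with no overlap and the highest value in replicate 2. The log2 fold change was 1.72 (SE 0.41, adjusted p = 0.038). Without ablated replicate 2 of that time it was 1.21 (adjusted p = 0.16), and the call was lost too without unablated 2 dpi replicate 1, 2 or 3, unablated 4 dpi replicate 3 or any 1 ablated 4 dpi library, with adjusted p of 0.051 to 0.10. With pairs the call was kept (adjusted p = 0.0041). It was lost in limma-voom (adjusted p = 0.052), with no filter (0.055) and on log2(TPM + 1) (0.072). The fits without first replicates (0.072) and of that time alone (0.14) lost it as well. At 4 dpi rdh10b stood at 27.5, 17.4 and 18.6 CPM in unablated and 36.5, 25.4 and 42 CPM in ablated libraries, and at 7 dpi at 18.2, 20.5 and 27.1 CPM against 21.8, 40 and 44.4 CPM.

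dhrs9, a short-chain dehydrogenase of retinol, went the other way. It was at 26.7, 172 and 217 CPM in unablated and 3.89, 39.2 and 28.1 CPM in ablated 2 dpi libraries, and at 101, 74.8 and 64.9 CPM against 14.2, 21.5 and 17.5 CPM at 4 dpi. The ablated library was the lower in every pair of both times. It was called with pairs only, at -2.62 (SE 0.30, adjusted p = 0.00048) at 2 dpi and -2.17 (SE 0.29, adjusted p = 0.003) at 4 dpi, beside adjusted p of 0.085 and 0.24 without them. Its ablation effect at 7 dpi lay above that at 2 dpi by 2.08 with pairs (SE 0.40, adjusted p = 0.021). Without pairs the difference was 2.17 and did not pass (SE 1.03, adjusted p = 0.49).

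Genes of vitamin A storage and uptake were the most abundant of the pathway. Mean levels over the 18 libraries were 7100 TPM for rbp5, a cellular retinol binding protein, 4740 TPM for lratb.2 and 2420 TPM for lrata, acyltransferases that store retinol as esters, and 2010 TPM for stra6, the receptor for retinol uptake. dhrs3a, the paralog of dhrs3b, stood at 180 TPM. At 2 dpi its estimate had the opposite sign to that of dhrs3b, at 84.6 ± 19.3 CPM in unablated and 144 ± 83.9 CPM in ablated larvae (SD, n = 3). The ablated library was the higher in all 3 pairs, but the groups overlapped (log2 fold change 0.77, SE 0.56, adjusted p = 0.55). lrata held 7110, 5560 and 6760 CPM in unablated and 680, 2550 and 2230 CPM in ablated 2 dpi libraries, a separation called with pairs only (-2.02, SE 0.47, adjusted p = 0.016, against 0.37 without). rbp2b, another retinol binding protein gene, and lratb.1 were called lower with pairs at 2 and 4 dpi. How reads that match both lratb.1 and lratb.2 were counted is not given in the sources used here, so reads of these copies may be split between them.

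Of 10 receptor genes 8, 9 and 10 had negative fold changes at 2, 4 and 7 dpi. Their medians were -0.81, -0.73 and -0.66, beside -0.03, -0.07 and 0 over all genes. None was called at these times, when 2.25%, 0.0946% and 0% of all genes were. Groups did not overlap for 3, 3 and 2 of the 10, all lower, against 11.6% and 11.1% of all genes lower at 2 and 4 dpi and 9.32% either way at 7 dpi. With pairs 2 of the 10 were called lower at 2 dpi, against 6.87% of all genes. rxrga, a retinoid X receptor gene, stood at 11, 18 and 10.3 CPM in unablated and 6.33, 3.99 and 1.62 CPM in ablated 2 dpi libraries (log2 fold change -1.71, SE 0.47, adjusted p = 0.064, and 0.011 with pairs). raraa, a retinoic acid receptor gene, stood at 19.7, 43 and 54.1 CPM against 6.13, 25.7 and 24.6 CPM (-1.05, SE 0.70, adjusted p = 0.50, and 0.013 with pairs). The co-repressor gene ncor1, whose product silences targets when the receptor is free of ligand, was called lower with pairs at 4 dpi (-0.69, adjusted p = 0.04, against 0.39 without). Its group means there were 94.1 ± 19.5 CPM in unablated and 57.7 ± 7.91 CPM in ablated larvae (SD, n = 3).

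**Figure D4:**
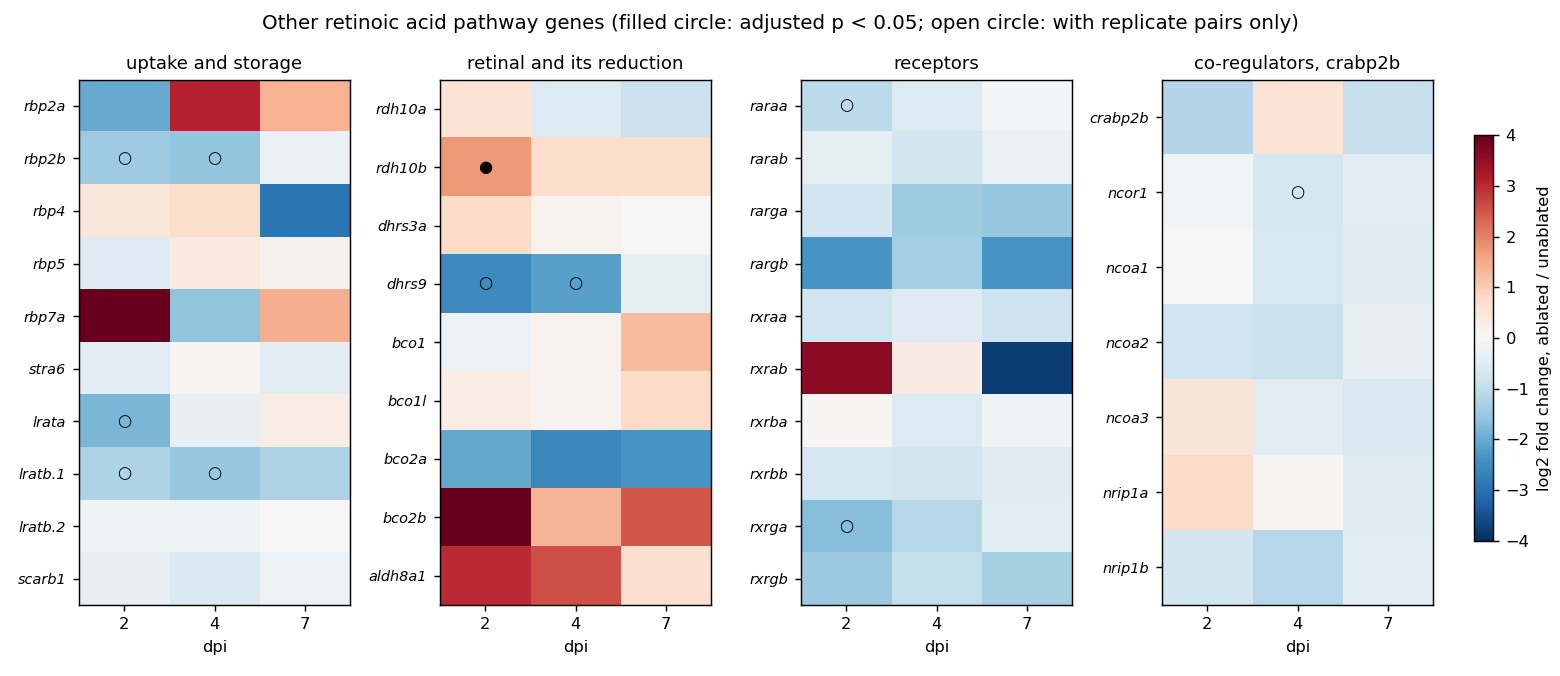
Log2 fold change of ablated over unablated libraries for genes of the wider pathway at 2, 4 and 7 dpi, in 4 panels by role, with colours capped at 4 in either direction. The filled circle marks rdh10b at 2 dpi, the 1 gene with an adjusted p below 0.05, and open circles mark genes called only with replicate pairs, 6 at 2 dpi and 4 at 4 dpi, all of them lower.

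For each of the 10 genes, the genes with the most similar profile over the 18 libraries were sought among 15216 named genes, by the root mean square difference of centred log2 CPM. The values are descriptions, since all genes share libraries and depth. crabp1a lay nearest to fabp7a, a fatty acid binding protein gene of neural progenitors and glia, at 0.85, and to six6b, an eye field transcription factor gene, at 1.08, with H2AFX (1 of many), a histone gene, at 1.2, beside a median of 2.40 over all candidates. fabp7a is also in the Müller glia list and six6b in the progenitor list. fabp7a stood at 401, 4250 and 1650 CPM in unablated and 33.9, 110 and 147 CPM in ablated 2 dpi libraries. crabp2a lay nearest to dla, a Notch ligand gene, at 1.12, and to her4.4 and her4.2, both Notch target genes, at 1.39 and 1.44, beside a median of 3.29.

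cyp1b1 lay nearest to phyhipla at 1.05, abca2, a lipid transporter gene, at 1.07 and slc4a10b, a bicarbonate transporter gene, at 1.18, beside a median of 2.58. phyhipla stood at 55.7, 84.8 and 105 CPM in unablated and 2.64, 7.54 and 9.61 CPM in ablated 2 dpi libraries, at 522, 331 and 337 CPM against 56.1, 42.5 and 45.1 CPM at 4 dpi, and at 328, 230 and 180 CPM against 121, 73.4 and 62.1 CPM at 7 dpi. It was the lower in ablated libraries at each time without overlap. dhrs3b lay nearest to rab20, a small GTPase gene, at 0.30, with camk2g1 at 0.35 and LGR4 at 0.36, beside a median of 1.23. The nearest genes of the others were kcnk2a, p4htm and tmtc2a for cyp26b1 at 1.53 to 1.57, snx22 and kif26ba for aldh1a3 at 1.51 and 1.52, and col1a1b, paplna and sox13 for aldh1a2 at 1.28 to 1.34. For cyp26a1 they were cdk6, nid2a and mafgb at 1.26 to 1.27, for cyp26c1 ntng2b, nt5c1aa and lzts3a at 1.31 to 1.35, and for crabp1b ribc2, cfap77 and cars2 at 0.76 to 1.08.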

How the data were processed

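Per the file headers, the authors deposited 1 table per time with total counts per gene from paired, trimmed reads, and TPM beside them, for 34326 genes. Per the labels, cDNA came from SMART-Seq v4 and libraries from Nextera XT. Positions follow GRCz10, which the submitters' processing notes name. No source used here names the aligner, the counting program or its strand setting.

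The deposited counts of all 18 libraries (21.9 M to 60.4 M each) were filtered with filterByExpr by group, which kept 20093 of 29481 genes with a count, and scaled by TMM. A robust quasi-likelihood model in edgeR 4.0.16 held 6 group means, leaving 12 residual degrees of freedom, and the common coefficient of variation was 79.9%. P-values were adjusted by Benjamini-Hochberg across every gene tested and called below 0.05. The deposited TPM served to compare levels between genes and, as log2(TPM + 1), for 1 alternative. That alternative had no TMM scaling, and the added 1 narrows differences of genes at low TPM. Low counts widen errors: a group without counts was granted 3 per library.

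Replicate numbers of the labels were used as pairs. Deviations from group means correlated at 0.187 to 0.593 within a number and at most 0.183 between numbers. Deviations cancel within each group, so a positive value within a number lowers those between numbers, and the gap is partly built in. It was narrow for ablated 2 dpi replicate 2, at 0.235 with unablated replicate 2 and 0.183 with unablated replicate 3. These values come from the same counts and do not establish the pairing. The fit with these pairs as a block leaves 6 residual degrees of freedom. Alternatives were this block, RLE size factors, DESeq2 1.42.0, limma-voom (limma 3.58.1), no filter, log2(TPM + 1), libraries of 1 time alone, no first replicates, and each library left out. R was 4.3.3.

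The 10 genes, the gene lists and the tests were chosen with earlier results of these data known. Named were the 10 genes, pathway genes past the threshold with or without pairs, the 8 pathway genes highest in mean TPM, genes of other lists past the threshold or else the 2 highest in mean TPM, and the 3 nearest genes by profile. The endothelial sum without gpr182 and the markers at 0 were chosen after values were seen. A symbol was matched to the deposited gene name or, if absent there, through the gene ID that a reference list of names gives for it. Some genes that this rule selects are counted in their lists but not reported here by name.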

Additional observations from a re-analysis of the deposited data

Results flagged for a closer look

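The ablation effects of 2 of the 10 genes differed between times when the difference itself was tested with replicate pairs. With the same pairs 6 of 20 neural retina progenitor markers were called higher for 7 minus 2 dpi, so the change is not particular to these 2. For crabp1a the effect at 7 dpi minus that at 2 dpi was 6.48 on the log2 scale (adjusted p = 0.32), and 6.20 with pairs (SE 1.06, adjusted p = 0.014), with ablated libraries the lower in 3 of 3 pairs at 2 dpi and the higher in 3 of 3 at 7 dpi. For crabp2a it was 6.70 (adjusted p = 0.42), and 5.97 with pairs (SE 0.96, adjusted p = 0.012). The crabp1a effect at 7 dpi minus that at 4 dpi was 4.22 (adjusted p = 1), and 4.54 with pairs (SE 1.05, adjusted p = 0.3). It stands here because all 3 pairs were lower at 4 dpi and all 3 higher at 7 dpi, and the test of the difference did not pass.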

How the results depend on the processing

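Of the 10 genes, 1 was called at 2 dpi, against 3 with the replicate block, 4 in DESeq2, 2 in a fit of that time alone, 0 on log2(TPM + 1) and 0 without first replicates. At 4 dpi DESeq2 and the fit of that time alone called 1 instead of 0, and at 7 dpi DESeq2 called 1 instead of 0. For the change of effect from 2 to 7 dpi the block called 2 and DESeq2 1 instead of 0, and the block changed no other call of the 10. Of all genes the block called 862 and DESeq2 285 for that change, against 0 by edgeR without pairs. In unablated larvae DESeq2 called 2 and log2(TPM + 1) 1 instead of 0 from 2 to 4 dpi, and no filter and voom called 0 instead of 1 from 2 to 7 dpi. From 2 to 4 dpi DESeq2 called 2204 and log2(TPM + 1) 1078 of all genes there, against 718 by edgeR. Most of the calls on log2(TPM + 1) were higher (844, with 234 lower). Most calls by edgeR (555 lower, 163 higher) and DESeq2 (1495 lower, 709 higher) were lower. On log2(TPM + 1) the crabp1a call from 2 to 7 dpi was lost (-3.58, adjusted p = 0.05), and dhrs3b was called instead. In ablated larvae the 2 calls from 2 to 4 dpi became 1 with no filter or no first replicates and 0 with voom. On log2(TPM + 1) both were lost (adjusted p = 0.26 for cyp26b1 and 0.25 for cyp1b1), and 1 other of the 10 was called. From 2 to 7 dpi in ablated larvae DESeq2 called 3144 of all 20093 genes tested, against 1356 by edgeR. The 2 calls in that comparison became 4 in DESeq2, 1 without first replicates and 0 with voom. On log2(TPM + 1) both were lost (adjusted p = 0.097 for aldh1a3 and 0.42 for cyp1b1), and dhrs3b was called instead. Leaving out 1 library gave 0 to 1, 0 to 1, 0 to 2 and 1 to 3 calls in these 4 comparisons, in that order. The cause was not tested.

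Direction turned at 4 dpi for cyp26c1 (-2.18) and crabp2a (0.32) when 1 library was left out. At 7 dpi it turned in such fits for aldh1a2 (-0.75), cyp26a1 (3.18), crabp1b (3.19), crabp2a (-3.08), cyp26c1 (-0.34 and -4.19) and dhrs3b (-0.03 and -0.40). Without first replicates it turned for cyp26a1 (3.65) and crabp1b (3.66). Turns were also given for cyp26c1 by the block (-2.07), voom (-1.91), log2(TPM + 1) (-0.18) and that time alone (0.00), and for dhrs3b by the block (-0.05), voom (-0.05) and log2(TPM + 1) (-0.20). None of these was called before or after. Over fits that left out 1 library, 4 dpi values ranged from -2.18 to 4.90 for cyp26c1 and from -3.62 to 0.32 for crabp2a. At 7 dpi they ranged from -0.75 to 5.77 for aldh1a2, -4.19 to 0.58 for cyp26c1, -0.40 to 0.25 for dhrs3b (0.28 without first replicates), -5.19 to 3.18 for cyp26a1, -4.94 to 3.19 for crabp1b and -3.08 to 4.56 for crabp2a.

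Of all genes, 452, 19 and 0 were called at 2, 4 and 7 dpi (19 to 585, 0 to 56 and 0 to 2 when 1 library was left out), against 2901, 1732 and 1 with the block and 1759, 717 and 133 in DESeq2. At 2 dpi the fit of that time alone called 55. At 4 dpi voom called 185, log2(TPM + 1) 247, that time alone 206, no filter 35 and no first replicates 10. For aldh1a2, crabp1b, cyp26a1 and cyp26c1, standard errors of ablation effects were 1.73 to 2.44 on the log2 scale, and estimates as large as 5.88 did not pass.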

Other observations

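A list of 15 genes that pattern the eye from dorsal to ventral had lower sums in every ablated library than in every unablated one at 2 and 4 dpi, and overlapping sums at 7 dpi. Its sum at 2 dpi was 280 to 391 CPM without ablation against 181 to 217 CPM after it, compared with 423 to 549 CPM and 270 to 316 CPM at 4 dpi, and 366 to 443 CPM and 257 to 426 CPM at 7 dpi. Fold changes were negative for 13, 13 and 14 of the 15 genes, with medians of -0.71, -0.57 and -0.31 on the log2 scale, beside -0.03, -0.07 and 0 over all genes. None was called by edgeR at any of these times, when 2.25%, 0.0946% and 0% of all genes were, and 4, 2 and 0 had an unadjusted p below 0.05, against 16.5%, 11.7% and 6.61%. gdf6a, which encodes a ligand of the TGF-beta superfamily known to set dorsal identity in the zebrafish retina, stood at 72.8 ± 39.2 and 24.2 ± 5.48 CPM at 2 dpi and at 109 ± 37.9 and 41.8 ± 23.1 CPM at 4 dpi (unablated and ablated, SD, n = 3), without overlap at either time. It was called lower with pairs at both times, at -1.49 (SE 0.34, adjusted p = 0.015) and -1.48 (SE 0.35, adjusted p = 0.027), and not without them (adjusted p = 0.28 and 0.48). With pairs it was the only 1 of the 15 called lower at each of these times, against 6.87% and 3.93% of all genes. rdh10a, a retinol dehydrogenase gene, was the second of the list by mean TPM over the 18 libraries, at 29.5 TPM. It stood at 12.2 ± 6.54 and 17.8 ± 14.9 CPM at 2 dpi, where other genes of the list, such as tbx2a at 39.6 CPM without ablation, were higher.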
